A study of Mus musculus with 6 samples.

Results

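The 9 genes described here encode transcription factors that set and hold myeloid identity: Spi1, Prdm1, Bcl6, Maf, Cebpa, Cebpb, Cebpd, Runx1 and Ikzf1. They were taken by gene symbol from a table of 26529 mouse genes, and all 9 were found. The table gives RPKM, in which the reads of a gene are scaled by the length of its exons and by the depth of the library, for 6 RNA-seq libraries. The libraries came from macrophages grown from the bone marrow of wild-type C57BL/6 mice aged 8 weeks. In the labels, 3 libraries named OC are from osteoclast differentiation of macrophages at 6 days and 3 named OCP from osteoclast precursor differentiation at 3 days, and whether these days precede or include the exposure to RANKL is not clear from them. OC and OCP stand here for the libraries so labelled. Both groups had received M-CSF, the growth factor of macrophages, at 20 ng/ml and RANKL, the cytokine that drives osteoclast formation, at 10 ng/ml. Neither the pooling of mice nor separate cultures are given for the replicates, so each p-value reflects the scatter among these libraries alone, part or all of which can be technical.

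Osteoclasts form by fusion of cells of the monocyte and macrophage lineage, and the same myeloid factors serve both fates. PU.1, the product of Spi1, opens myeloid enhancers for macrophage genes and, with MITF and NFATc1, for osteoclast genes. In mouse cultures with RANKL, the repressor BLIMP1, encoded by Prdm1, silences genes that oppose osteoclast formation, among them Irf8 and Bcl6, whereas the repressor BCL6 holds down osteoclast genes such as Nfatc1, Dcstamp, Ctsk and Acp5. The C/EBP proteins, c-MAF, RUNX1 and Ikaros act earlier or in parallel, in the choice between granulocyte, macrophage and lymphoid programmes and in the activation of macrophages.

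The sequences upstream of Bcl6 and Prdm1 are shown because these 2 repressors had opposite differences between OC and OCP. They are the 250 bases before 2 annotated starts of Bcl6 and 1 start of Prdm1, 5′ to 3′ on the strand of the gene, from RefSeq on GRCm38.p6. Capitals mark matches to GAGGAAG (PU.1), TTCNNNGAA (the palindrome that BCL6 shares with STAT factors) and GNGAAAG (the core read by BLIMP1).

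Bcl6 first start, chr16:23988853-23989102, minus strand: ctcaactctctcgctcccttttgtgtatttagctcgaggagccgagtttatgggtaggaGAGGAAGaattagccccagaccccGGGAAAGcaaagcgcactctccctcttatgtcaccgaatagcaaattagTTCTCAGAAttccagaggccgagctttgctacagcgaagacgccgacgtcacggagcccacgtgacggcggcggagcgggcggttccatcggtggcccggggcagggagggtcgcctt
Bcl6 second start, chr16:23981284-23981533, minus strand: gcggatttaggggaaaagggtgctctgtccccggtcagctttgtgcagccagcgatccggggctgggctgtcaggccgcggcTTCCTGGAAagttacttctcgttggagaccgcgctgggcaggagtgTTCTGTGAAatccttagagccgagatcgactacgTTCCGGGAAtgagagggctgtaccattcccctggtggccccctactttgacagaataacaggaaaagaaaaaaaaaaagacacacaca
Prdm1, chr10:44458749-44458998, minus strand: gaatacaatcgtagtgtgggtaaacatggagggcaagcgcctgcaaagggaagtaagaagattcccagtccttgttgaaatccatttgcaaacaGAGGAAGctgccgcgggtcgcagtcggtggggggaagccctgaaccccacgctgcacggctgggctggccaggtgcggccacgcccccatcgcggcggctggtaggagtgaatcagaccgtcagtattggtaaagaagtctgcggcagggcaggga

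The window before the second Bcl6 start held 3 matches to TTCNNNGAA, at 168, 122 and 88 bases before the start, and the window before the first start held 1, at 118 bases. Of all 32851 windows of this length, 7.02% held at least 1 match to these letters, and the share that held 3 was not counted. GAGGAAG occurred once before the first Bcl6 start and once before the Prdm1 start, against 10.6% of all windows, and GNGAAAG once before the first Bcl6 start, against 19.4%. Both strands were searched for these letters and for TTGCNNAA (C/EBP) and TGTGGT (RUNX), and no 2 matches in these windows overlapped. RefSeq windows were at hand for 6 of the 9 genes, 9 windows in all, and the windows of Cebpa, Cebpb, Runx1 and Ikzf1 held none of the 5 motifs. The second Bcl6 window and the Prdm1 window lie inside their genes and in no annotated exon. A match describes letters and not a bound site.

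The libraries held 33219178 to 42121216 reads assigned to genes, and 12301 genes that reached 1 RPKM in at least 3 of them were tested with limma on log2(RPKM + 1). Of these genes 23.5% were called higher in OC and 32.1% lower (adjusted p under 0.05), and the counts of markers below stand beside these shares. All 10 osteoclast markers listed were present in both groups and all 10 fell in the libraries labelled OC, where their summed level was 2730 to 2815 RPKM, against 5104 to 5261 RPKM in OCP. This goes against the names of the groups, by which osteoclasts would hold more of these transcripts than their precursors. The labels were used as given, and the direction of every difference between OC and OCP below rests on them. Of 9 tested macrophage and monocyte markers 7 rose (77.8%) and 2 fell (22.2%, under the share of all tested genes). Their summed level was 1535 to 1602 RPKM in OC and 1381 to 1450 RPKM in OCP. Neutrophil markers summed to 57.8 to 64.0 RPKM in OC and 40.6 to 45.2 RPKM in OCP, with all 4 tested members higher. Their granule genes were not alike. Ngp averaged 7.94 RPKM in OC and 5.51 RPKM in OCP, and Mmp8 10.4 and 6.57 RPKM. Ltf reached at most 1.16 RPKM and Camp 0.665 RPKM, and Mpo, Elane and Prtn3 were at most at 0.229 RPKM. The lists of B, T and NK, stromal, erythroid and megakaryocyte, and dendritic and mast cells each summed to at most 4.73 RPKM in every library. Retnlg and Cd3g were at 0 in all OC libraries, and Cd3e, Cd3d, Ms4a1, Cpa3 and Mcpt4 in all OCP libraries. In such bulk RNA, fewer cells of a type and less RNA per cell cannot be told apart. The part of these markers in the results on the 9 factors was not tested.

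All 9 factors passed the filter on low values. Bcl6, Ikzf1, Cebpb, Runx1 and Maf rose in OC and Spi1 and Prdm1 fell, while Cebpa and Cebpd did not pass (adjusted p under 0.05 over all tested genes). Over all tested genes 23.5% rose and 32.1% fell, 55.6% together, so that calls in either direction were common in this comparison. The values of OC lay apart from those of OCP for 8 of the 9 factors, against 62.7% of all tested genes, and Cebpd was the exception. The median of the absolute log2 fold changes was 0.56 for the 9 factors and 0.24 for all tested genes. The signed medians were 0.41 and -0.05. By voom on the whole reads recovered from the RPKM, 6 of the 9 factors rose and 2 fell, where 28.0% and 29.6% of all tested genes did so.

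**Figure D1:**
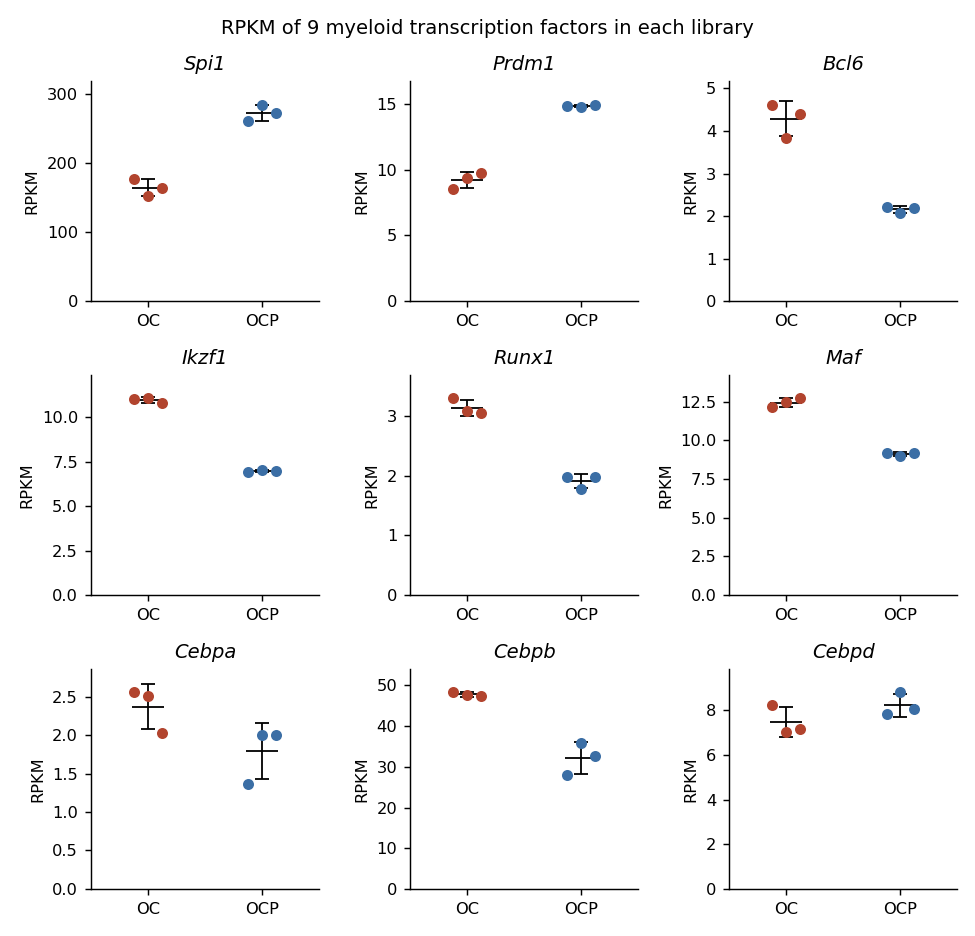
RPKM of each of the 9 factors in the 3 OC and the 3 OCP libraries, 1 panel a gene, each y axis starting at 0 (points, libraries; bar, mean with SD). Spi1 and Prdm1 sit lower in all OC libraries, Bcl6, Ikzf1, Runx1, Maf and Cebpb sit higher, and the points of Cebpd overlap between the groups.

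Spi1, which encodes the ETS factor PU.1, was the most abundant of the 9 in both groups and had the largest fall. Its position is chromosome 2, plus strand, 91082390 to 91115756 (GRCm38), with no exon of another annotated gene over its own. Its level was 177, 153 and 165 RPKM in OC replicates 1 to 3, from 16727, 13667 and 16905 reads, against 261, 285 and 274 RPKM in OCP replicates 1 to 3, from 29650, 30524 and 27105 reads. Every OC library was below every OCP library. The means were 165 ± 12.3 RPKM in OC and 273 ± 12.03 RPKM in OCP (SD, n = 3 each), so OC kept 60.3% of the OCP level. The log2 fold change of RPKM + 1 was -0.73 (SE 0.06, limma adjusted p = 4.2e-05). Even so, the mean level of Spi1 was above that of 97.0% of tested genes in OC and of 98.2% in OCP.

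Prdm1 encodes BLIMP1, a zinc-finger repressor with a PR domain that RANKL induces through NFATc1 in mouse osteoclast cultures. The gene lies on the minus strand of chromosome 10 (44437177 to 44528501). It was at 8.55, 9.37 and 9.71 RPKM in OC and at 14.8, 14.7 and 14.9 RPKM in OCP. The OCP libraries lay within a narrow band (SD 0.0978 RPKM) and all OC libraries lay below it. With means of 9.21 ± 0.598 RPKM in OC and 14.8 ± 0.0978 RPKM in OCP (SD, n = 3 each), the log2 fold change was -0.63 (SE 0.06, limma adjusted p = 4.7e-05). No exon of another annotated gene overlaps Prdm1.

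Bcl6, a BTB and zinc-finger repressor on the minus strand of chromosome 16 (23965052 to 23988852), had the largest rise of the 9. It was at 4.62, 3.83 and 4.41 RPKM in OC (1083, 853 and 1126 reads) and at 2.21, 2.07 and 2.19 RPKM in OCP (625, 550 and 538 reads). The lowest OC library was still above the highest OCP library. The ratio of means was 1.99, from 4.29 ± 0.407 RPKM in OC and 2.16 ± 0.0779 RPKM in OCP (SD, n = 3 each), with a log2 fold change of RPKM + 1 of 0.74 (SE 0.07, limma adjusted p = 8.2e-05). At this low level the pseudocount of 1 holds the value down: with a pseudocount of 0.01 the log2 fold change was 0.98. The voom fit on the recovered reads, which also rescaled the libraries by TMM, gave 1.03. Gm37419, a gene on the other strand, shares 21 bases of the Bcl6 exons.

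The ratio of Prdm1 to Bcl6 within a library does not depend on how libraries are scaled. It was 1.85, 2.45 and 2.20 in OC and 6.69, 7.13 and 6.83 in OCP. Prdm1 was the more abundant per length in every library, by a smaller margin in OC. The mean log2 ratio was 1.11 ± 0.20 in OC and 2.78 ± 0.05 in OCP (SD, n = 3 each), a difference of -1.68. The exact two-sided permutation test gave p = 0.1, the smallest that 3 against 3 libraries allow, and 0.2 after Benjamini-Hochberg adjustment over the 2 ratios tested.

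**Figure D2:**
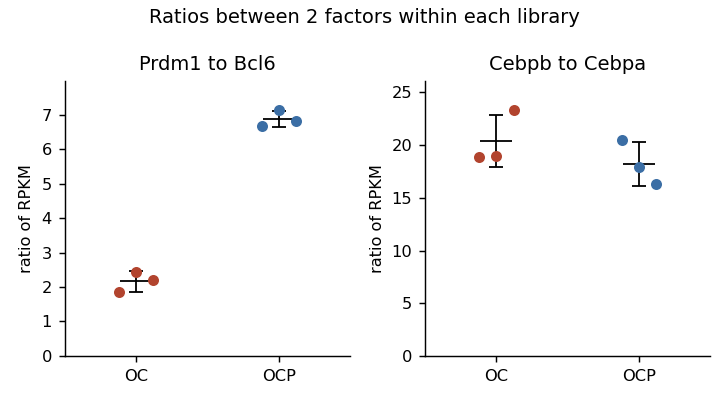
Ratio of the RPKM of 2 genes within each library for Prdm1 to Bcl6 and for Cebpb to Cebpa (points, libraries; bar, mean with SD; y axes start at 0). The Prdm1 to Bcl6 ratio lies between 1.85 and 2.45 in OC and between 6.69 and 7.13 in OCP, and the Cebpb to Cebpa ratios of the groups overlap.

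Genes known in mouse osteoclast cultures as targets of these repressors were given in 2 short lists, chosen with earlier results of these data known. Of the genes that BLIMP1 represses, both listed rose, beside 23.5% of all tested genes. They were Irf8, an interferon regulatory factor that opposes osteoclast formation, and Bcl6. The rise of Bcl6 is the one already given above and adds nothing separate here. Irf8 was at 24.0, 24.7 and 22.6 RPKM in OC and at 10.5, 10.8 and 10.7 RPKM in OCP (log2 fold change 1.09, limma adjusted p = 1.5e-06). Of the genes that BCL6 represses, all 4 fell, beside 32.1% of all tested genes, and the median of their log2 fold changes was -0.91. Nfatc1, the master regulator of osteoclast formation, averaged 61.6 ± 1.14 RPKM in OC and 94.8 ± 4.03 RPKM in OCP, and Dcstamp, a membrane protein needed for fusion, 24.2 ± 1.08 RPKM in OC and 45.9 ± 2.01 RPKM in OCP (SD, n = 3 each). The other 2, the protease gene Ctsk and the phosphatase gene Acp5, had the same log2 fold change of -0.92. These 4 genes are also among the 10 osteoclast markers, so their fall is not separate from that of the markers.

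Ikzf1 encodes Ikaros, a zinc-finger regulator of lymphoid and myeloid differentiation, with its locus at 11685003 to 11772926 on chromosome 11, plus strand. It was at 11.04, 11.06 and 10.8 RPKM in OC and at 6.95, 7.05 and 6.99 RPKM in OCP. The spread within each group was small beside the gap between them. With means of 10.96 ± 0.154 RPKM in OC and 6.998 ± 0.0526 RPKM in OCP (SD, n = 3 each), its log2 fold change of 0.58 (SE 0.05) had the lowest adjusted p of the 9 (limma, 2.9e-05). Among the other Ikaros factors, Ikzf5 rose to 2.53 ± 0.244 RPKM in OC, against 1.78 ± 0.250 RPKM in OCP (SD, n = 3 each; limma adjusted p = 0.012). Ikzf2, Ikzf3 and Ikzf4 were at most at 0.0409 RPKM in any library and were not tested, so Ikzf1 was the most abundant of the family by RPKM in both groups.

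Runx1, the DNA-binding subunit of a core-binding factor of blood cells, lies on the minus strand of chromosome 16 (92601466 to 92826149). It was at 3.29, 3.08 and 3.04 RPKM in OC and at 1.98, 1.77 and 1.97 RPKM in OCP, without overlap. The ratio of means was 1.64, from 3.14 ± 0.134 RPKM in OC and 1.91 ± 0.116 RPKM in OCP (SD, n = 3 each), with a log2 fold change of 0.51 (SE 0.06, limma adjusted p = 0.0003) and of 0.76 by voom on the recovered reads. The antisense gene Gm26626 shares 106 bases of its exons. Its paralogue Runx3 fell, to 1.35 ± 0.141 RPKM in OC against 2.05 ± 0.111 RPKM in OCP (SD, n = 3 each; log2 fold change -0.38, limma adjusted p = 0.0027). Cbfb, the partner subunit that RUNX proteins need, named after its values were seen, was at 21.5 ± 0.782 RPKM in OC and 20.9 ± 1.04 RPKM in OCP and did not pass (limma adjusted p = 0.56).

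Maf encodes c-MAF, a large bZIP factor of macrophages, and lies on the minus strand of chromosome 8 (115682942 to 115707794). It was at 12.1, 12.5 and 12.7 RPKM in OC and at 9.17, 8.98 and 9.20 RPKM in OCP. Every OC library was higher, by the smallest fold of the 5 factors that rose (log2 fold change 0.41, SE 0.05, limma adjusted p = 0.00018). The antisense gene Gm15655, at 42.3 to 53.4 RPKM in OC and 37.5 to 38.7 RPKM in OCP, shares 440 bases or 5.34% of the Maf exons, and the use of strand in counting is not given in the sources used here. The 3 MAF family genes tested beside it rose as well, with the small MAF gene Maff furthest, at 14.0 ± 1.13 RPKM in OC and 5.57 ± 0.381 RPKM in OCP (SD, n = 3 each; log2 fold change 1.19, limma adjusted p = 7.2e-06).

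The C/EBP genes differed among themselves. Cebpb, an intronless bZIP gene on the plus strand of chromosome 2 (167688915 to 167690418) whose product acts in macrophage activation, rose. It was at 48.3, 47.8 and 47.3 RPKM in OC and at 28.1, 35.9 and 32.8 RPKM in OCP. The SD was 1.10% of the mean in OC and 12.3% of the mean in OCP, where replicate 1 was lowest. The log2 fold change was 0.56 (SE 0.08, limma adjusted p = 0.00067). One messenger gives the long and the short C/EBPβ proteins, so RPKM does not separate these forms. Tmem189 on the other strand shares 312 bases or 20.7% of the Cebpb exon and was at 49.6 to 52.0 RPKM in OC and 41.0 to 46.6 RPKM in OCP. Its part in the Cebpb value was not tested.

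Cebpa, which drives the granulocyte and monocyte branch of blood formation, is a gene of chromosome 7 (35119293 to 35121928, plus strand). Its mean was the lowest of the 9 in both groups, although Runx1 was lower in OCP replicates 2 and 3 (1.77 and 1.97 RPKM). Cebpa was at 2.56, 2.51 and 2.03 RPKM in OC (236, 220 and 204 reads) and at 1.37, 2.01 and 2.00 RPKM in OCP (152, 210 and 194 reads). The groups did not overlap, but OC replicate 3 lay beside OCP replicates 2 and 3. The antisense gene Gm45091 shares 51 bases of the Cebpa exon. The log2 fold change was 0.27 (95% confidence interval 0.01 to 0.54) and did not pass after adjustment (limma adjusted p = 0.070). Cebpa passed as higher in OC by voom on the recovered reads (log2 fold change 0.46, adjusted p = 0.017) and without OC replicate 3 (limma adjusted p = 0.041). OCP replicate 1 was the lowest library for both Cebpa and Cebpb. The ratio of Cebpb to Cebpa was 18.9, 19.0 and 23.3 in OC and 20.5, 17.9 and 16.4 in OCP, with overlap between the groups (difference in mean log2 ratio 0.16, exact two-sided permutation p = 0.4, adjusted 0.4).

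Cebpd, an inducible C/EBP gene of acute inflammation on the plus strand of chromosome 16 (15887286 to 15891031), was at 8.24, 7.02 and 7.17 RPKM in OC and at 7.83, 8.81 and 8.07 RPKM in OCP. OC replicate 1 was above 2 of the 3 OCP libraries. The log2 fold change was -0.13 with a 95% confidence interval from -0.29 to 0.04 (limma adjusted p = 0.18). Spidr on the other strand shares 562 bases or 15.0% of the Cebpd exon and was at 14.7 to 15.3 RPKM in OC and 6.44 to 7.45 RPKM in OCP. Any reads of Spidr in the Cebpd value cannot be seen without the strand setting.

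**Figure D3:**
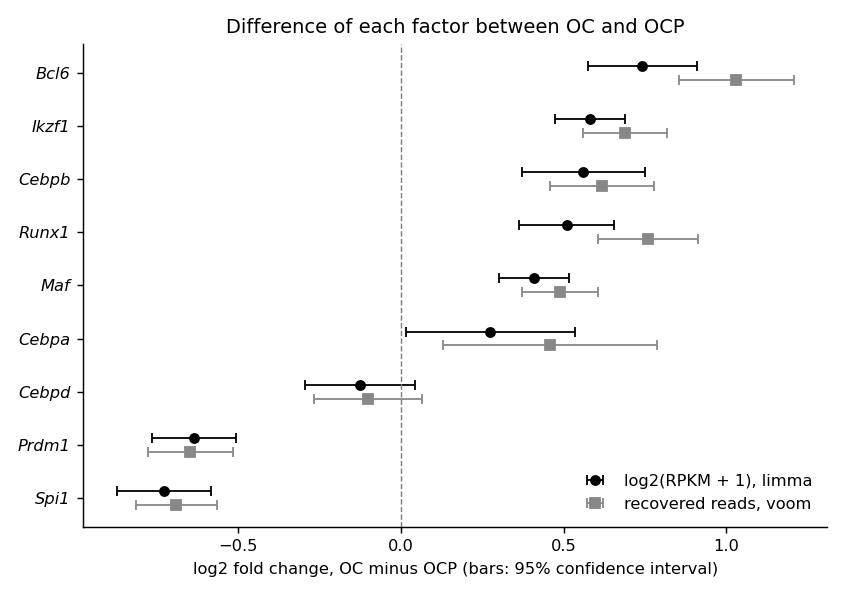
Log2 fold change, OC minus OCP, of each of the 9 factors with its 95% confidence interval, from limma on log2(RPKM + 1) (circles) and from voom on the recovered reads (squares). The intervals of Spi1 and Prdm1 lie below 0 and those of Bcl6, Ikzf1, Cebpb, Runx1, Maf and Cebpa above 0 in both fits, although Cebpa did not pass the adjusted limma test. The interval of Cebpd crosses 0 in both.

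Per length, the order of the 9 factors in OC was Spi1, Cebpb, Maf, Ikzf1, Prdm1, Cebpd, Bcl6, Runx1 and Cebpa. In OCP it was Spi1, Cebpb, Prdm1, Maf, Cebpd, Ikzf1, Bcl6, Runx1 and Cebpa. Prdm1 stood above Maf and Ikzf1 in OCP and below both in OC. Neighbours in the order had ranges over the 3 libraries that did not overlap, with 1 exception, Runx1 and Cebpa in OCP. The means ran from 2.37 RPKM for Cebpa to 165 RPKM for Spi1 in OC and from 1.79 to 273 RPKM in OCP, where the median tested gene had 6.73 RPKM in OC and 6.65 RPKM in OCP.

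The genes whose profile over the 6 libraries lay closest to that of Bcl6, by Euclidean distance of centred log2(RPKM + 1) among 5196 genes with a mean of at least 10 RPKM in one of the groups, were Thbs1, Cd52 and Adgre1. Their distances were 0.101, 0.103 and 0.107. For Spi1 they were Atad3a, Ndst1 and Glrx5, at 0.0501, 0.0782 and 0.0793. The libraries fall into 2 groups that differ for many genes, so these distances mostly describe a like fold change of RPKM + 1. The pseudocount of 1 holds this value down more for Bcl6 than for more abundant genes, so their folds in RPKM are less alike. The means in OC and OCP were 4.29 and 2.16 RPKM for Bcl6, 15.6 and 8.77 RPKM for Thbs1, 42.0 and 24.4 RPKM for Cd52, and 258 and 153 RPKM for Adgre1.

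Related transcription factors and cofactors, 68 genes in 7 lists, had 44 tested members, of which 20 rose, 6 fell and 18 did not pass. That is 45.5% higher and 13.6% lower, beside 23.5% and 32.1% of all tested genes. Their median log2 fold change was 0.08, beside -0.05 for all tested genes. The counts of single lists are small and several lie near or under these shares, so they describe the lists only. All 7 lists were also chosen with earlier results of these data known. Among relatives and regulators of C/EBP proteins, 3 of 6 rose and 1 fell. Ddit3, a C/EBP-like partner induced by stress, rose to 120 ± 6.82 RPKM in OC, against 45.8 ± 2.30 RPKM in OCP, and Trib3 fell to 3.56 ± 0.385 RPKM in OC, against 5.90 ± 0.289 RPKM in OCP (SD, n = 3 each). Of 11 other ETS factors 5 rose, Etv3 furthest (log2 fold change 0.99), and 1 fell, Elf2 (-0.22). Cofactors of BCL6 and BLIMP1 had 2 of 11 higher, led by the corepressor Ncor1 (0.39), and 2 lower, led by the deacetylase Hdac2 (-0.32). Of 9 other lineage factors 6 rose, Irf8 furthest, and 1 fell, Klf4 (-0.28, limma adjusted p = 0.032), a call that was lost in 5 of the 6 fits that left out 1 library, all but that without OCP replicate 2 (adjusted p from 0.060 to 0.11), and with no filter on low values (0.083).

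**Figure D4:**
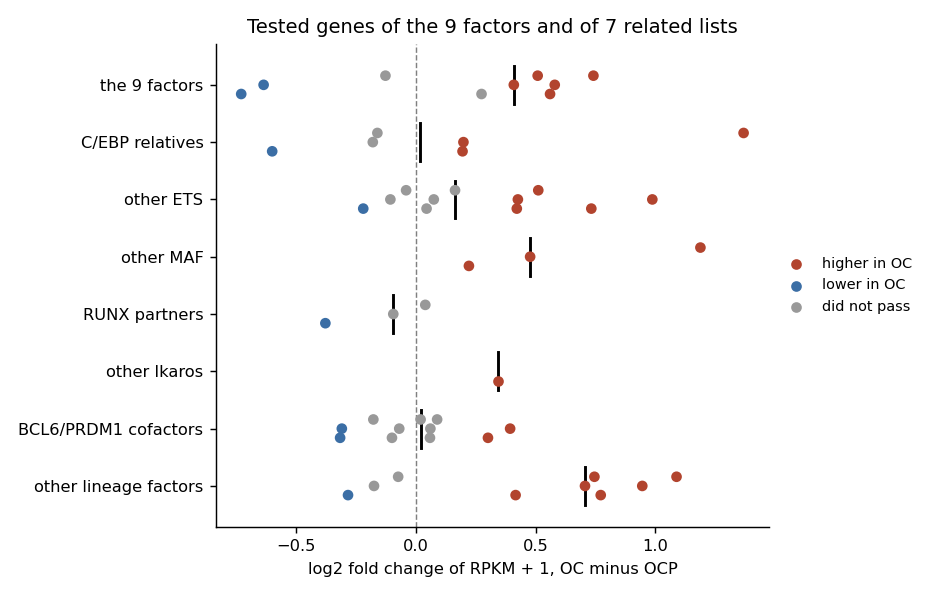
Log2 fold change of RPKM + 1, OC minus OCP, of the 9 factors and of the tested genes of 7 related lists (points, genes coloured by the limma call; bar, median of the list). The 9 factors spread from -0.73 for Spi1 to 0.74 for Bcl6, and the 3 other MAF genes lie above 0.

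Target genes known from other work were counted beside the 23.5% of all tested genes that rose and the 32.1% that fell. These lists were chosen with earlier results of these data known, so their shares describe the lists and test nothing. Of 15 genes known as PU.1 targets 9 rose (60.0%) and 5 fell (33.3%), with the macrophage gene Mpeg1 at 118 ± 4.58 RPKM in OC and 49.0 ± 2.33 RPKM in OCP, and Tnfrsf11a, the receptor of RANKL, at 14.0 ± 0.491 RPKM in OC and 19.1 ± 1.02 RPKM in OCP (SD, n = 3 each). Of 12 C/EBP targets 11 rose (91.7%), with Ptgs2, the inducible cyclooxygenase, furthest. Il10, named after its values were seen, was the member that did not pass, at 1.51 ± 0.473 RPKM in OC and 2.06 ± 0.313 RPKM in OCP (SD, n = 3 each; limma adjusted p = 0.11). Of 8 tested targets of large MAF factors 7 rose (87.5%), F13a1 furthest (log2 fold change 1.37), and the same Il10 did not pass. These lists share genes with one another and with the macrophage markers, and whether the factors act on them in these cells was not measured.

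**Figure D5:**
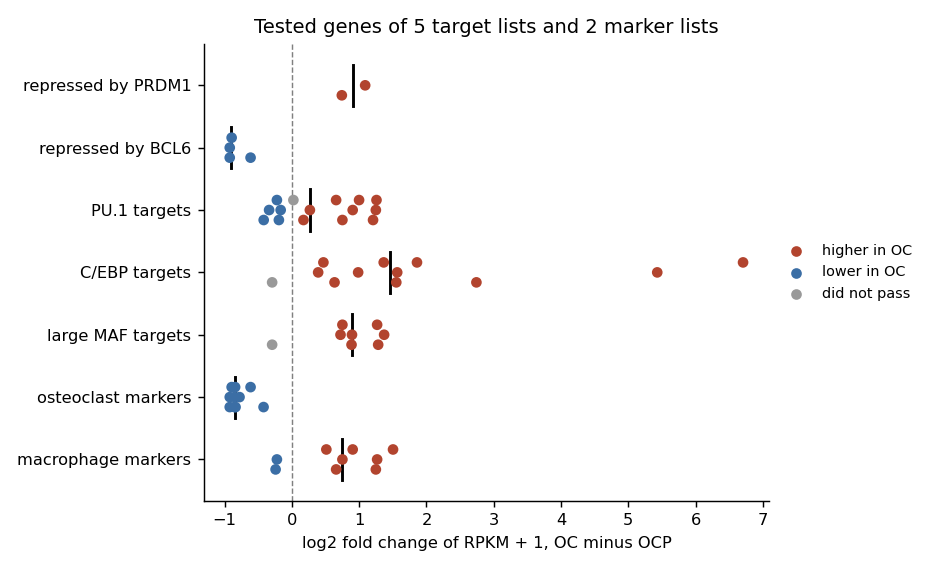
Log2 fold change of RPKM + 1, OC minus OCP, of tested genes in 5 lists of known targets and in the osteoclast and macrophage marker lists (points, genes coloured by the limma call; bar, median of the list). The genes repressed by BLIMP1 (PRDM1) lie above 0, those repressed by BCL6 and the osteoclast markers lie below 0, and the PU.1 targets lie on both sides.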

How the data were processed

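The authors deposited RPKM values per gene for 6 libraries. Per the labels' protocols, RNA was extracted with TRIzol and sequenced after a stranded mRNA library kit. Per the submitters' processing notes, Trimmomatic 0.36, STAR 2.5.3a and featureCounts were used. The notes name GRCh38, but 95.8% of the symbols matched GENCODE M21, and the 9 genes had its GRCm38 positions. The strand setting is not given in the sources used here. Gene length was taken as a column of the deposited table, per the file headers.

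RPKM times length gave whole reads for 100% of values within 0.01 reads. The reads of 2 replicates of a group differed beyond counting noise (a chi-square of 5.18 to 21.4 for each degree of freedom), so none was counted as a repeat. The contrast of OC with OCP was fitted on log2(RPKM + 1) by limma 3.58.1 under R 4.3.3, with statmod 1.5.0 for its robust option and a variance trend, two-sided, Benjamini-Hochberg adjusted over the 12301 genes that reached 1 RPKM in 3 or more libraries. The steps were tested on simulated reads with 200 changed genes. In the data 6843 genes were called, so this test does not cover so broad a difference. The alternatives are quantile and TMM scaling, pseudocounts of 0.1 and 0.01, a filter on the mean at 5 RPKM or none, no trend and robust options, the replicate block, voom on recovered reads, and leaving out each library. Similar transcripts were sought with blastn 2.17.0 (at least 90% identity over 150 bases), which found none beyond the antisense overlaps of Maf, Cebpb and Cebpd. The members and lists were chosen with earlier results of these data known. A gene of these lists and a ratio planned with it are not reported here. Named from a list were its called genes with the largest rise and fall, or every gene of lists of up to 4, and the most abundant gene of each marker list. These last were Ctsk, Cd68, S100a9, Vpreb1, Trac, Acta2, Ppbp and Batf3, with means in OC and OCP of 1711 and 3249, 721 and 854, 31.9 and 23.2, 2.91 and 3.80, 1.26 and 1.81, 1.19 and 1.22, 0.537 and 0.317, and 0.995 and 1.09 RPKM.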

Additional observations from a re-analysis of the deposited data

How the results depend on the processing

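None of the 132 values of the 9 factors under 15 alternative settings turned direction, and 130 kept their side of the threshold. The exceptions were both of Cebpa, which passed by voom (log2 fold change 0.46) and without OC replicate 3 (0.35); over all libraries left out in turn its log2 fold change ranged from 0.16 to 0.35. With a mean of at least 5 RPKM, 3 of the factors were higher, against 5, because Bcl6 and Runx1 were not tested, and 17 related factors were called, 3 of them lower, against 26 and 6. The log2 ratio of Prdm1 to Bcl6 differed by -1.38 with a pseudocount of 1, against -1.68. Leaving out libraries gave 5 to 6 factors higher and 2 lower. Whether libraries with the same replicate number are paired is not given. Their deviations from the group means correlated at -0.115, 0.143 and 0.0142, and those of libraries with unlike numbers at -0.278 to 0.258. With 3 libraries in each group these values can neither show nor exclude a pairing. With the replicate block 5 factors were higher and 2 lower, and the log2 fold change of Spi1 was -0.73. The alternatives for the genes named from lists were added after seeing the data. When single libraries were left out, the log2 fold changes of Acta2 ranged from -0.089 to 0.081 and those of Batf3 from -0.11 to 0.00038. The lower call of Vpreb1 was lost by voom (adjusted p = 0.062) and without OCP replicate 3 (0.055). Trac, which did not pass (limma adjusted p = 0.078), was lower with the replicate block (0.013), by quantile scaling (0.034), and without OC replicate 1 (0.025) or OCP replicate 2 (0.040). It does not stand for its list. Of the 3 tested T and NK markers 2 rose in the main fit and 0 fell, beside 23.5% and 32.1% of all tested genes. Those that rose were Lck (log2 fold change 0.98, means 1.23 RPKM in OC and 0.131 RPKM in OCP) and Il7r (0.30, means 1.42 and 0.973 RPKM). Cebpa had the fewest reads of the 9 factors, at 152 to 236 a library, and the part of depth in its result was not tested.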
